A study of Mus musculus with 10 samples.

Results

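A set of 10 genes that make and load the peptides carried by MHC class I were followed through the T cells of mouse colorectal carcinoma. They are Tap1, Tap2, Tapbp, Psmb8, Psmb9, Psmb10, B2m, H2-K1, H2-D1 and Nlrc5. They were taken by gene symbol, and each symbol matched 1 row, so the set is 10 of the 31053 features in the files of 5 single-cell RNA libraries. All 10 passed the filter on low counts in every comparison.

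The libraries came from T cells that had infiltrated the tumours and were read from the 5′ ends of transcripts on a droplet platform. The combination group (2 RNA libraries and 2 TCR libraries) received S. chamaejasme, an agent that the labels name and do not describe further, together with anti-PD-1, an antibody to PD-1, an inhibitory receptor of T cells. The S. chamaejasme group (1 of each) received that agent without the antibody, and the untreated group (2 of each) received neither. The labels give no mouse strain, age, dose, route or treatment time, and do not say whether libraries of 1 group came from separate animals, so p-values measure the spread between libraries, which may be technical. No group received anti-PD-1 alone. The S. chamaejasme group is 1 library and was assumed to vary like the others.

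MHC class I molecules show fragments of a cell's own proteins at its surface, where CD8 T cells inspect them. Proteasomes cut the proteins; the inducible subunits encoded by Psmb8, Psmb9 and Psmb10 replace the constitutive Psmb5, Psmb6 and Psmb7 products to form the immunoproteasome. The TAP transporter, a pair of Tap1 and Tap2 products, moves the fragments into the endoplasmic reticulum, and tapasin, encoded by Tapbp, helps load them on a heavy chain (here H2-K1 or H2-D1) bound to beta-2 microglobulin, the product of B2m. Nlrc5 encodes the transactivator that is recruited to class I promoters. T cells express the whole set themselves, and interferon gamma is a well known inducer of it.

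In GENCODE M21 on GRCm38, 7 of the 10 genes lay on chromosome 17 within 1351601 bases. Psmb9, Tap1, Psmb8 and Tap2 were neighbours in 34335 bases of it. Promoter windows were matched in RefSeq (GRCm38.p6) for 8 of the 10, all but Tap2 and Nlrc5. The windows below set the heavy chain and B2m promoters beside the shared promoter of Psmb9 and Tap1. The heavy chain genes and B2m did not pass the treatment test in any class, and Psmb9 and Tap1 passed it in 3 and 2 classes. The windows shown were chosen by that outcome. Each is 5′ to 3′ in the sense of its gene and ends at the base before the RefSeq start. The RefSeq start was 434 bases from the GENCODE 5′ end for Psmb9 and 364 bases for H2-D1. By GENCODE positions the H2-D1 window and the Psmb9 to Tap1 interval therefore lie inside H2-D1 and Psmb9. Capitals mark matches, on either strand, to a kappa B motif (3 G, any 2 bases, 2 T, any base, 2 C), the interferon regulatory factor (IRF) letters TTTCNNTTC, the X2 letters TGACG and the Y letters ATTGG. These motif letters were chosen after the windows had been read.
H2-K1, chr17:34000348-34000597, minus strand: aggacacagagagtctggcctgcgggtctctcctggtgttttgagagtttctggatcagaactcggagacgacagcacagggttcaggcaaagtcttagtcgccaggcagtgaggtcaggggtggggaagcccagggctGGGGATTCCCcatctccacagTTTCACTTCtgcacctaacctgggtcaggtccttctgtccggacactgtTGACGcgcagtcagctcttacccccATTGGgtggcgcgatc
H2-D1, chr17:35262844-35263093, plus strand: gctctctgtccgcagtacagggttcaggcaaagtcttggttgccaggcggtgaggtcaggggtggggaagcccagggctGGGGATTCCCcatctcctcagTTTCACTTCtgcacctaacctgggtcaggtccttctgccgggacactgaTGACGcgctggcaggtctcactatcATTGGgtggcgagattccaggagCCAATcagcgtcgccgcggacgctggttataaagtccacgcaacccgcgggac
B2m, chr2:122147437-122147686, plus strand: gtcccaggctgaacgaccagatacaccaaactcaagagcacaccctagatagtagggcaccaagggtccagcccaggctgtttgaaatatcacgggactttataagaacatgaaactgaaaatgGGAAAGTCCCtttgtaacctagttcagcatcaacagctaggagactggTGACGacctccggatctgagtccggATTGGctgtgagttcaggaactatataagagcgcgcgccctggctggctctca
Psmb9 to Tap1 interval, chr17:34187331-34187555, minus strand (the sense of Psmb9): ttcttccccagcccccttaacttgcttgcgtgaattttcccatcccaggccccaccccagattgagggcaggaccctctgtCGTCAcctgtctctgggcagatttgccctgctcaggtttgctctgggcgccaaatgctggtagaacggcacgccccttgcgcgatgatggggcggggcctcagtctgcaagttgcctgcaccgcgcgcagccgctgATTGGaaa

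The H2-K1 and H2-D1 windows held all of these motifs in the same order, kappa B, IRF, X2 and Y, the H2-D1 window with a further Y match on the other strand, and with kappa B beginning at -111 and at -171 from the start. The B2m window held kappa B at -126, X2 at -78 and Y at -53 and no match to the IRF letters. Before kappa B it reads gaaactgaaa, whose other strand differs from the IRF letters only by an added t. The lack of a match there depends on the letters chosen and does not show that an IRF site is absent. The 225 bases between the Psmb9 and Tap1 starts held X2 at -144 and Y at -8 from the Psmb9 start and no match to kappa B or IRF. Of 32851 windows of 250 bases before a start, 4.11% held kappa B, 6.31% IRF, 17.8% X2 and 33.8% Y. No pair of these motifs overlapped in the windows shown. The letters TTCNNNGAA of the interferon gamma activated site, in 7.02% of windows, matched Psmb8 at -97 and none of the sequences shown. A match describes letters and was not tested as a binding site. The lack of a match, also between Psmb9 and Tap1, does not show that a site is absent.

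The RNA libraries held 27759543 and 26015879 UMIs in the combination, 19999977 with S. chamaejasme, and 8763821 and 15428707 in untreated tumours. After filters, 20286 of 22590 barcodes remained, and 227 of 21321 distinct barcodes occurred in more than 1 library. Clustering without the 10 genes, their pathway lists or TCR segment genes gave 16 clusters, of which 10 formed 3 classes named from markers. Clusters 8 and 11, with 862 and 212 cells, met the markers of gamma delta T cells and were not summed or tested. CD8 T-like cells had a summed level of Cd8a and Cd8b1 of 1204 to 1485 CPM (UMI counts scaled to the same total), against 9.66 to 43.8 CPM in the other classes. Treg-like cells (regulatory T cells) had 3721 to 5195 CPM over 8 Treg markers, against 269 to 678 CPM in the others, and CD4 conventional T-like cells had Cd4 without these. Of 10 macrophage and monocyte markers the sum was 3.42 to 9.66 CPM in every class and library. The sum of 5 erythroid markers was 657.8 CPM in CD4 conventional T-like cells with S. chamaejasme, against 0 to 1.65 CPM in those of the other libraries; 6922 of the 6923 UMIs came from 1 cell of cluster 0, and haemoglobin genes led that cluster's genes by fold. Without cells that held an erythroid UMI, an alternative chosen after the data had been seen, the members' counts of calls were as large in each comparison with CD4 conventional T-like cells (5, 0 and 0 for treatments, 10 and 6 for lineages). Of the 8 dendritic cell markers, Clec9a, Cd209a and Siglech were at 0 in all 15 sums; the sum was 920.0 to 1524 CPM in the combination, 415 to 907 CPM with S. chamaejasme and 415 to 1354 CPM in untreated sums, and it counts Ccr7, which T cells also use.

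The libraries also differed in ways other than treatment. The transcripts AY036118, Lars2 and Gm42418, which often mark RNA quality, were lower in treated libraries: AY036118 stood at 593 to 1316 CPM in the combination and 634 to 787 CPM with S. chamaejasme, against 2137 to 4440 CPM in untreated sums. Median UMIs per CD4 conventional T-like cell were 4909 and 4740 in the combination and 3493 with S. chamaejasme, against 3415 and 3885 in untreated libraries. Cluster 7, a CD4 conventional T-like cluster with Plaur, Zfand2a and Bbc3 among its leading genes, made up 1.04% and 1.14% of its class in the combination and 1.29% with S. chamaejasme, against 16.5% and 30.9% in untreated libraries. In CD8 T-like cells the granzyme cluster 6 held 25.3% and 30.4% in the combination and 68.9% with S. chamaejasme, against 59.96% and 34.4% in untreated libraries. The part of these differences in the results below was not tested, except where values without a cluster are given. In sums over cells, fewer cells that express a gene and less RNA per cell cannot be told apart.

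**Figure D1:**
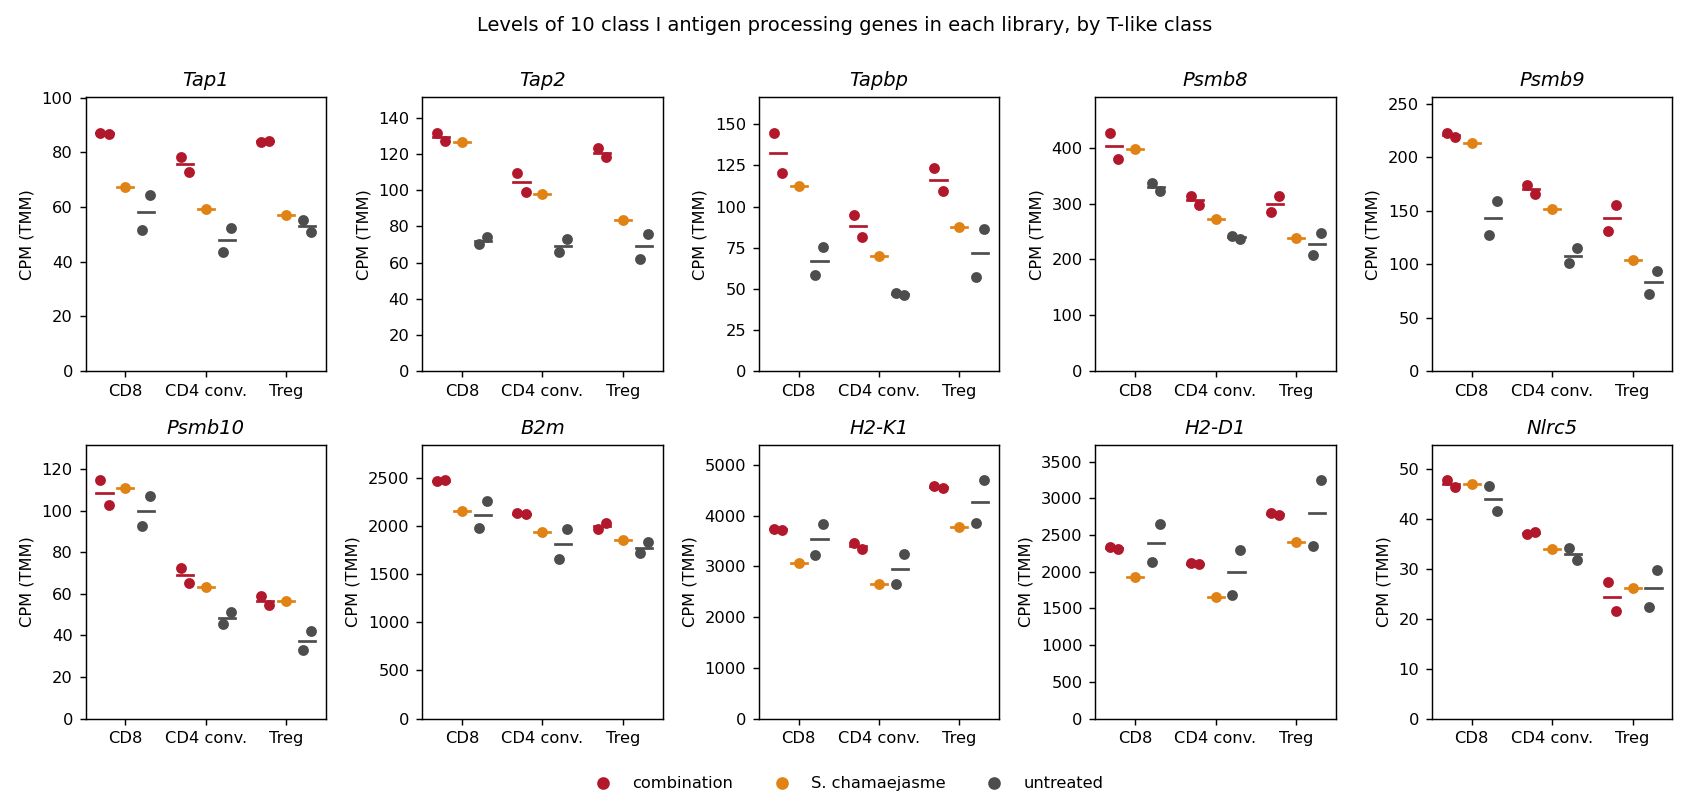
Levels of the 10 genes in each library as CPM with TMM factors (y axis from 0), by T-like class (x axis). Each point is 1 library, combination, S. chamaejasme and untreated from left to right within a class, and the bar is the group mean. The transporter, tapasin and Psmb9 points of the combination sit above both untreated points in all 3 classes, while the H2-D1 points of the combination lie between them.

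Between the combination and untreated tumours, the genes that passed the test were all higher and all belonged to the transporter, tapasin and the immunoproteasome, while B2m, H2-K1 and H2-D1 did not pass. In CD4 conventional T-like cells 5 of the 10 genes rose (Tap1, Tap2, Tapbp, Psmb9 and Psmb10), where 2.57% of 11336 genes tested rose. In CD8 T-like cells 3 rose (Tap2, Tapbp and Psmb9), where 1.09% of 9646 did. In Treg-like cells 3 rose (Tap1, Tap2 and Psmb9), where 1.38% of 8965 did. No member fell. The median log2 difference of the 10 genes was 0.43 in CD4 conventional, 0.25 in CD8 and 0.43 in Treg-like cells, against -0.00, 0.01 and 0.01 over all genes tested. Calls are edgeR quasi-likelihood tests with a Benjamini-Hochberg adjusted p under 0.05 over all genes, and levels are CPM with TMM factors.

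The transporter genes come first. Tap1 (chromosome 17, 34187553 to 34197225, plus strand) encodes one chain of the peptide transporter and stood in CD4 conventional T-like cells at 78.5 and 72.7 CPM in the combination, against 43.6 and 52.5 CPM in untreated libraries. Both combination libraries were above both untreated ones, and the log2 difference was 0.65 ± 0.12 (SE; edgeR adjusted p = 0.0233). Treg-like cells had 83.7 and 84.3 CPM in the combination against 55.2 and 50.9 CPM untreated, a rise of 0.66 ± 0.18 (edgeR adjusted p = 0.0487). CD8 T-like cells had 87.1 and 86.8 CPM against 51.7 and 64.4 CPM untreated, again without overlap, but the difference of 0.57 ± 0.14 did not pass (edgeR adjusted p = 0.0531). It passed in 5 of 11 alternatives, with adjusted p of 0.0476 with DESeq2 size factors, 0.00549 without the filter, 0.0497 in cells gated by UMIs and 0.0448 with doublets left in. Tap2 (chromosome 17, 34203527 to 34216321, plus strand), the other chain, had 132 and 127 CPM in combination CD8 T-like cells against 70.0 and 74.0 CPM untreated, a rise of 0.84 ± 0.13 (edgeR adjusted p = 0.00607). It rose by 0.59 ± 0.11 in CD4 conventional T-like cells (109.8 and 99.3 CPM against 65.7 and 73.1 CPM untreated; edgeR adjusted p = 0.0232). In Treg-like cells Tap2 rose by 0.74 ± 0.17 (123 and 118 CPM against 62.1 and 76.0 CPM untreated; edgeR adjusted p = 0.0240). The Tap2 libraries of the 2 groups did not overlap in any class.

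Tapbp (chromosome 17, 33915899 to 33929292, plus strand) had the largest change of the 10 genes in CD8 and in CD4 conventional T-like cells. It stood at 145 and 121 CPM in combination CD8 T-like cells against 58.5 and 75.4 CPM untreated, a rise of 0.98 ± 0.16 (edgeR adjusted p = 0.00859). CD4 conventional T-like cells had 95.04 and 81.6 CPM against 47.5 and 46.4 CPM untreated, a rise of 0.92 ± 0.11 (edgeR adjusted p = 0.00878). Treg-like cells had 123 and 109 CPM against 56.9 and 86.6 CPM untreated, also apart, with a difference of 0.59 ± 0.18 that did not pass (edgeR adjusted p = 0.0781). Tapbp overlaps Zbtb22 on the same strand in the annotation, and Zbtb22 had 40 and 34 UMIs in CD4 conventional T-like cells of the combination, where Tapbp had 1486 and 1129, and 12 and 16 UMIs in untreated libraries, where Tapbp had 255 and 401. Tap1 and Psmb9 overlap each other on opposite strands, and all the other members but H2-K1 and H2-D1 overlap a gene on the opposite strand; the labels do not say how strand was counted.

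The immunoproteasome subunits did not all move by the same amount. Psmb9 (chromosome 17, 34181987 to 34187764, minus strand) encodes the beta 1i subunit and passed the test in all 3 classes. It had 223 and 219 CPM in combination CD8 T-like cells against 128 and 159 CPM untreated (0.61 ± 0.14, edgeR adjusted p = 0.0344). CD4 conventional T-like cells had 174 and 165 CPM against 101 and 115 CPM untreated (0.66 ± 0.11, edgeR adjusted p = 0.0173). Treg-like cells had 131 and 155 CPM against 72.4 and 93.8 CPM untreated (0.71 ± 0.17, edgeR adjusted p = 0.0320). In no class did the groups overlap. Psmb10 (chromosome 8, 105935735 to 105938444, minus strand), which encodes beta 2i, rose in CD4 conventional T-like cells, with 72.5 and 65.1 CPM against 45.6 and 51.4 CPM untreated (0.50 ± 0.11, edgeR adjusted p = 0.0385). Its CD8 T-like levels overlapped, at 114 and 103 CPM against 92.5 and 107 CPM untreated (0.12 ± 0.13, edgeR adjusted p = 0.660). Within that class and without TMM factors, cluster 6 had 129 to 150 CPM in the combination against 94.6 to 95.5 CPM untreated. Cluster 3 had 85.2 to 92.9 CPM against 85.5 to 94.4 CPM untreated. The part of the cluster shares in the class value was not tested. Psmb8 (chromosome 17, 34197721 to 34201454, plus strand), which encodes beta 5i, passed in no class. It had 314 and 297 CPM in CD4 conventional T-like cells against 242 and 237 CPM untreated (0.36 ± 0.09, edgeR adjusted p = 0.0570).

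The constitutive counterparts of these subunits did not pass in any class. Psmb6, the counterpart of Psmb9, had 119 and 112 CPM in CD4 conventional T-like cells of the combination against 119 and 135 CPM untreated (-0.14 ± 0.11, edgeR adjusted p = 0.430). Psmb6 differed by -0.18 ± 0.13 in CD8 and -0.40 ± 0.15 in Treg-like cells (edgeR adjusted p = 0.484 and 0.156). Psmb5, the counterpart of Psmb8, differed by 0.13, 0.07 and 0.05 in CD8, CD4 conventional and Treg-like cells, and Psmb7, the counterpart of Psmb10, by 0.20, 0.11 and 0.05. Whether the inducible subunits changed more than their counterparts was not tested.

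The presenting molecules were the most abundant of the set. B2m (chromosome 2, 122147686 to 122153083, plus strand) had 2132 and 2129 CPM in CD4 conventional T-like cells of the combination against 1659.8 and 1972 CPM untreated (0.24 ± 0.12, edgeR adjusted p = 0.227). H2-K1 (chromosome 17, 33996017 to 34000347, minus strand) had 3458 and 3352 CPM in these cells against 2663 and 3249.5 CPM untreated (0.21 ± 0.12, edgeR adjusted p = 0.303). H2-D1 (chromosome 17, 35262730 to 35267499, plus strand) had 2113 and 2107 CPM against 1688 and 2293 CPM untreated (0.09 ± 0.15, edgeR adjusted p = 0.727). For B2m and H2-K1 the combination libraries were above both untreated ones, and for H2-D1 they lay between them. The heavy chains stood far apart in the untreated group itself, H2-D1 in Treg-like cells at 2345 and 3245 CPM. H2-K1 and H2-D1 are close in sequence, so reads may be split between them or lost, and the strain's alleles may differ from the reference; their values are uncertain to that extent. Nlrc5 (chromosome 8, 94434356 to 94527272, plus strand) was the least abundant of the set by UMIs, with 37.0 and 37.5 CPM in CD4 conventional T-like cells of the combination against 34.3 and 31.7 CPM untreated (0.19 ± 0.10, edgeR adjusted p = 0.279). It differed by 0.09 ± 0.14 in CD8 and -0.19 ± 0.25 in Treg-like cells.

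**Figure D2:**
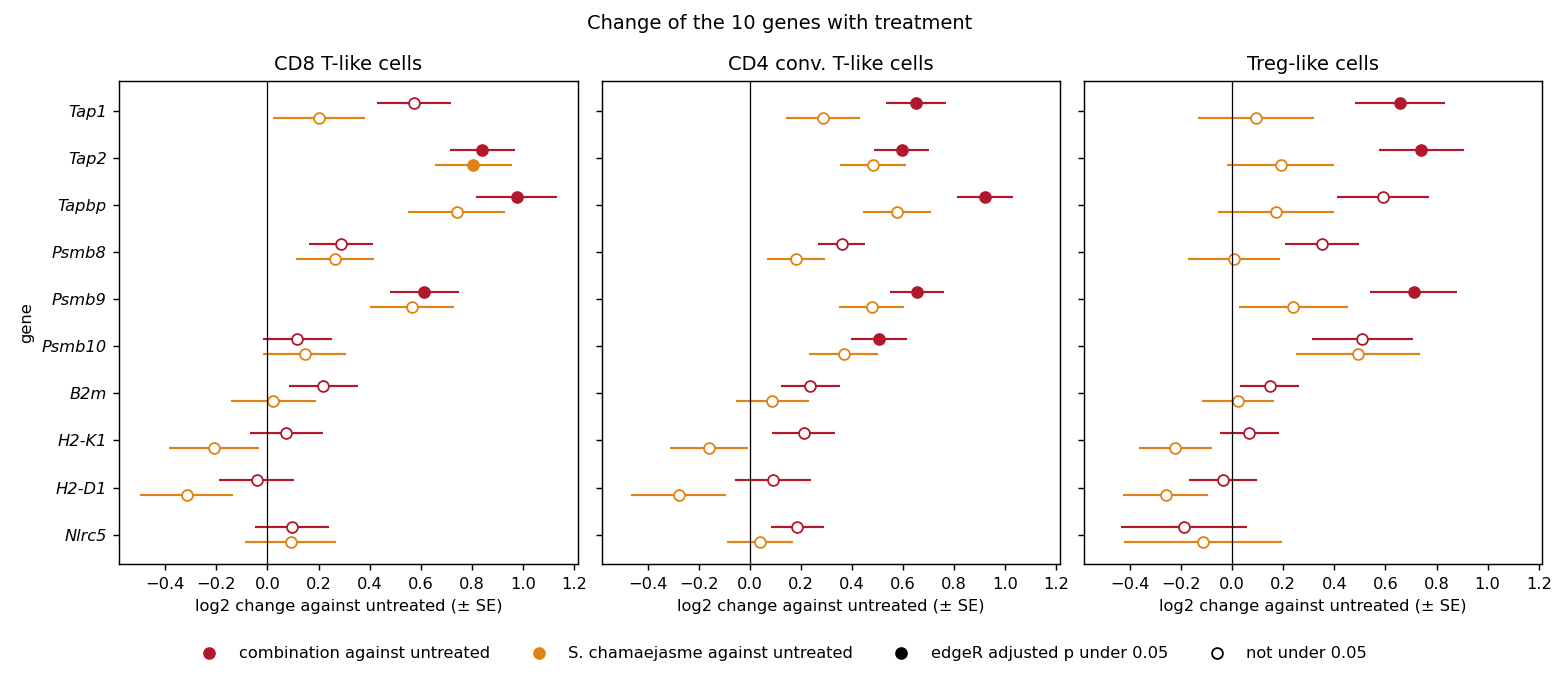
Log2 difference from untreated libraries (x axis, bars are SE) for each gene (y axis) in the 3 classes. Filled points passed the edgeR threshold of 0.05 and open points did not; in each pair the combination is drawn above S. chamaejasme. Tap2 in CD8 T-like cells is the only filled S. chamaejasme point, and no filled point lies among B2m, H2-K1, H2-D1 and Nlrc5.

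Single libraries and the mixture of clusters moved these calls. Leaving out a combination or untreated library left 1 library in that group, and the spread then came from the other pair alone. Calls of such fits, in either direction, are weaker evidence than those of the main fit. Without combination library 1, 1 of 10 genes rose in CD4 conventional T-like cells (Tapbp), and without untreated library 2, 9 rose. Tap1, Tap2 and Psmb9 had 0.60, 0.52 and 0.62 without combination library 1 (edgeR adjusted p = 0.0873, 0.16 and 0.0748), and Psmb10 had 0.59 without combination library 2 (edgeR adjusted p = 0.0815). B2m, H2-K1 and H2-D1 had 0.38, 0.38 and 0.35 without untreated library 2, where 1 untreated library was left. In the same class the DESeq2 test gave 4, and 4 rose without cluster 7, an alternative chosen after the data had been seen, in which Psmb10 did not pass (0.44, edgeR adjusted p = 0.0584). In cluster 0 alone 1 gene rose (Psmb9), and Tapbp there had a difference of 0.70 (edgeR adjusted p = 0.0563). In CD8 T-like cells the count was 2 with either of the combination libraries left out, 6 without untreated library 2 and 3 in cluster 3 alone. There Psmb9 had 0.61 without combination library 1 (edgeR adjusted p = 0.178) and 0.63 without library 2 (0.136), and its DESeq2 adjusted p was 0.0556, while Tap1 passed without untreated library 2 (0.75, edgeR adjusted p = 0.00163). In Treg-like cells no member passed without combination library 1, without library 2, in cluster 5 alone, in cells gated by UMIs or with DESeq2, and 6 passed without untreated library 2. Without the S. chamaejasme library 2 passed, and Tap1 had 0.66 (edgeR adjusted p = 0.0575). The sign of the Tap1, Tap2, Tapbp, Psmb8 and Psmb9 differences was positive under every alternative in all 3 classes.

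Within single clusters the same genes were higher in the combination. Of 9 clusters with at least 30 cells in each library of both groups, 9 had a mean level above untreated for Tap1, Tap2, Tapbp, Psmb8, Psmb9, B2m and H2-K1, 8 for Psmb10 and H2-D1 and 6 for Nlrc5. The log2 ratio of group means ran from 0.64 to 1.18 for Tapbp, from 0.36 to 1.12 for Tap2 and from 0.42 to 0.99 for Psmb9. It ran from 0.14 to 0.52 for B2m, from 0.03 to 0.38 for H2-K1 and from -0.07 to 0.26 for H2-D1, and values near 0 depend on the scaling. These clusters share libraries, so they describe the same 4 libraries and were not tested. The counts of clusters have no count over all genes beside them. Psmb8, B2m and H2-K1 passed the test of class sums in no class.

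With S. chamaejasme alone against untreated tumours, 1 gene passed the test, in a comparison where the treatment cannot be told apart from its only library. Tap2 had 126 CPM in CD8 T-like cells against 70.0 and 74.0 CPM untreated (0.81 ± 0.15, edgeR adjusted p = 0.0341), where 0.549% of genes tested rose. The DESeq2 adjusted p was 0.0512, and in cluster 3 alone the difference was 0.72 (edgeR adjusted p = 0.0899). In CD4 conventional T-like cells 0 of 10 passed with edgeR and with DESeq2, where 2.2% of genes did, and 4 had an unadjusted p under 0.05. In Treg-like cells 0 passed with either tool, where 2.26% of genes did, and 0 had an unadjusted p under 0.05. The S. chamaejasme library stood above both untreated libraries for Tap1, Tap2, Tapbp, Psmb9 and Psmb10 in all 3 classes. In Treg-like cells that library was close to untreated library 2 for Tapbp (87.8 against 86.6 CPM). For Tapbp it had 113 CPM in CD8, 70.2 in CD4 conventional and 87.8 in Treg-like cells, which differed from untreated by 0.74 ± 0.19, 0.57 ± 0.13 and 0.17 ± 0.23 (edgeR adjusted p = 0.0753, 0.0654 and 0.757). For H2-D1 it was below both untreated libraries in CD8 and CD4 conventional T-like cells, at 1927 and 1652 CPM, with differences of -0.32 ± 0.18 and -0.28 ± 0.18 (edgeR adjusted p = 0.373 and 0.397). Calls of the 10 genes moved when either untreated library was left out, which set 1 library against 1. The spread then came from the combination pair alone. Without untreated library 1 the H2-D1 differences in CD8 and CD4 conventional T-like cells were -0.47 and -0.48.

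The combination against S. chamaejasme asked what the antibody added, with 2 libraries against 1. With edgeR 0 of 10 genes passed in CD8 (0.892% of genes tested passed), in CD4 conventional (0.247%) and in Treg-like cells (0.781%), and DESeq2 also gave 0 in each. Unadjusted p-values were under 0.05 for 0, 3 and 3 of the 10 in the same order. Tap1 differed by 0.37 ± 0.17 in CD8, 0.36 ± 0.14 in CD4 conventional and 0.57 ± 0.20 in Treg-like cells (edgeR adjusted p = 0.387, 0.368 and 0.280). In Treg-like cells Tap1 had 83.7 and 84.3 CPM in the combination against 57.2 CPM with S. chamaejasme. H2-K1 had 3746 and 3722 CPM in combination CD8 T-like cells against 3069 CPM with S. chamaejasme, a difference of 0.28 ± 0.18 (edgeR adjusted p = 0.558). The untreated libraries enter here only the estimate of spread. With either of them left out, that spread came from the combination pair alone, and calls moved. The H2-K1 difference in CD8 T-like cells was 0.29 in both fits, near the 0.28 of the main fit. All of these comparisons share the untreated or the S. chamaejasme libraries.

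The effect of the combination was also compared between classes. For CD8 minus CD4 conventional T-like cells 0 of 10 genes passed with edgeR or DESeq2, where 0.0281% of 10669 genes passed, and 2 had an unadjusted p under 0.05. These were Psmb10, whose effect was smaller in CD8 T-like cells by a log2 difference of -0.38 ± 0.13 (edgeR adjusted p = 0.689), and H2-K1 (-0.13 ± 0.05, edgeR adjusted p = 0.792). For Treg-like minus CD4 conventional T-like cells 0 passed with either tool, where 0.928% of genes passed, and 0 had an unadjusted p under 0.05. For Tap2, the effect in CD8 exceeded that in CD4 conventional T-like cells by 0.26 ± 0.14 (edgeR adjusted p = 0.900). Without untreated library 2 the H2-D1 effect differed between CD8 and CD4 conventional T-like cells by -0.20, in a fit that left 1 untreated library.

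The 5 lists of neighbouring genes of the pathway were read beside the members. Of the other class I heavy chains, 12 of 14 listed were tested in CD4 conventional T-like cells of the combination against untreated, and 1 rose and 2 fell. H2-T23, which encodes the nonclassical chain Qa-1, rose by 0.51 ± 0.10 (edgeR adjusted p = 0.0277), while H2-Q1 and H2-Q10 had differences of -1.43 ± 0.11 and -1.05 ± 0.11 (edgeR adjusted p = 0.00373 and 0.00878). H2-Q1 and H2-Q10 also fell in CD8 and in Treg-like cells. These genes belong to a family of close copies, so their counts are uncertain. Of 10 genes of peptide trimming and loading, such as Erap1, Calr and Pdia3, none passed in any class in this comparison with edgeR (3, 4 and 2 had an unadjusted p under 0.05 in CD8, CD4 conventional and Treg-like cells). None of 14 constitutive proteasome core genes (1, 0 and 2) and none of 9 genes of proteasome activators and assembly (0, 2 and 3) passed with edgeR either. Among 21 tested genes of interferon signalling and class I transcription factors, Jak2 and Nfkb1 fell in both CD8 and CD4 conventional T-like cells. Jak2, a kinase of the interferon gamma receptor, and Nfkb1, a subunit of the factor that binds kappa B sites, had differences of -0.88 ± 0.15 and -0.74 ± 0.14 in CD8 T-like cells (edgeR adjusted p = 0.0121 and 0.0193). Ifng itself rose with S. chamaejasme in CD8 T-like cells (1.18 ± 0.20, edgeR adjusted p = 0.0305) and was lower in the combination than with S. chamaejasme (-1.64 ± 0.20, edgeR adjusted p = 0.00605). Both Ifng differences rest on 1 S. chamaejasme library. Ifng is also among the leading genes of the granzyme cluster 6, whose share of CD8 T-like cells was highest in that library. The part of that share was not tested. The summed level of 9 other interferon response genes in CD4 conventional T-like cells was 208 to 244 CPM in the combination and 230.3 CPM with S. chamaejasme, against 163 to 203 CPM untreated. In CD8 T-like cells the combination, at 246 to 266 CPM, overlapped the untreated libraries, at 179 to 252 CPM, with 253 CPM in the S. chamaejasme library. Treg-like cells had 274 to 324 CPM in the combination and 239.9 CPM with S. chamaejasme, against 151 to 236 CPM untreated. These sums were not tested.

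Between lineages, the class sums of all 10 genes were higher in CD8 than in CD4 conventional T-like cells, where 14.1% of 9478 genes tested were higher. In each of the 5 libraries the CD8 T-like sum was above the CD4 conventional one for each of the 10 genes. Psmb10 differed most. It stood at 114, 103, 111, 92.5 and 107 CPM in CD8 T-like cells of combination libraries 1 and 2, the S. chamaejasme library and untreated libraries 1 and 2, against 72.5, 65.1, 63.3, 45.6 and 51.4 CPM in CD4 conventional T-like cells of the same libraries. The groups did not overlap, and the log2 difference was 0.82 ± 0.07 (edgeR with the library as a block, adjusted p = 3.58e-08). Tapbp (0.59 ± 0.08), Psmb8 (0.45 ± 0.06), Psmb9 (0.41 ± 0.07) and Nlrc5 (0.39 ± 0.07) followed. Tap1, Tap2, B2m, H2-K1 and H2-D1 differed by 0.20 to 0.24. Nlrc5 averaged 45.8 ± 2.41 CPM in CD8 T-like cells and 34.9 ± 2.37 CPM in CD4 conventional T-like cells (SD, n = 5 libraries each). Tap1 and Tap2 did not pass without combination library 2 (0.21 and 0.21, edgeR adjusted p = 0.0628 and 0.116), nor did Tap2 without combination library 1 (0.23, edgeR adjusted p = 0.0810). By cluster, without TMM factors, Tapbp, Psmb8, Psmb10 and B2m were lower in every CD4 conventional T-like cluster than in both CD8 T-like ones. The other genes did not keep that order. Cluster 0 (CD4 conventional) was above cluster 3 (CD8) for Tap1 (77.2 against 69.6 CPM), Tap2 and Psmb9. Cluster 2 (CD4 conventional) was above cluster 3 for H2-K1, H2-D1 and Nlrc5 (51.8 against 41.3 CPM).

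Treg-like cells had another profile, with heavy chains and tapasin higher and Nlrc5, Psmb9 and Psmb10 lower than in CD4 conventional T-like cells. Here 3 genes rose and 3 fell, where 23.8% and 22.3% of genes tested did, so these counts are near the background. H2-K1 had 4578, 4554, 3772, 3861 and 4696 CPM in Treg-like cells, in the library order above, against 3458, 3352, 2662, 2663 and 3249.5 CPM in CD4 conventional T-like cells. The Treg-like values were all above the others, with a log2 difference of 0.48 ± 0.04 (edgeR with the library as a block, adjusted p = 1.97e-08). H2-D1 averaged 2712 ± 362 CPM in Treg-like and 1971 ± 285 CPM in CD4 conventional T-like cells (SD, n = 5 each; difference 0.46 ± 0.05), and Tapbp differed by 0.45 ± 0.08. Nlrc5 averaged 25.4 ± 3.39 CPM in Treg-like and 34.9 ± 2.37 CPM in CD4 conventional T-like cells (-0.47 ± 0.09), Psmb9 111 ± 32.4 and 141 ± 32.0 CPM (-0.34 ± 0.07), and Psmb10 49.0 ± 11.2 and 59.6 ± 10.9 CPM (-0.25 ± 0.08). Each of these kept its sign in all 5 libraries. Psmb10 did not pass without combination library 1 or 2 (-0.24 and -0.25, edgeR adjusted p = 0.0769 and 0.0674). Tap1, Tap2, Psmb8 and B2m did not pass, with differences of 0.10, 0.06, -0.07 and -0.06.

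**Figure D3:**
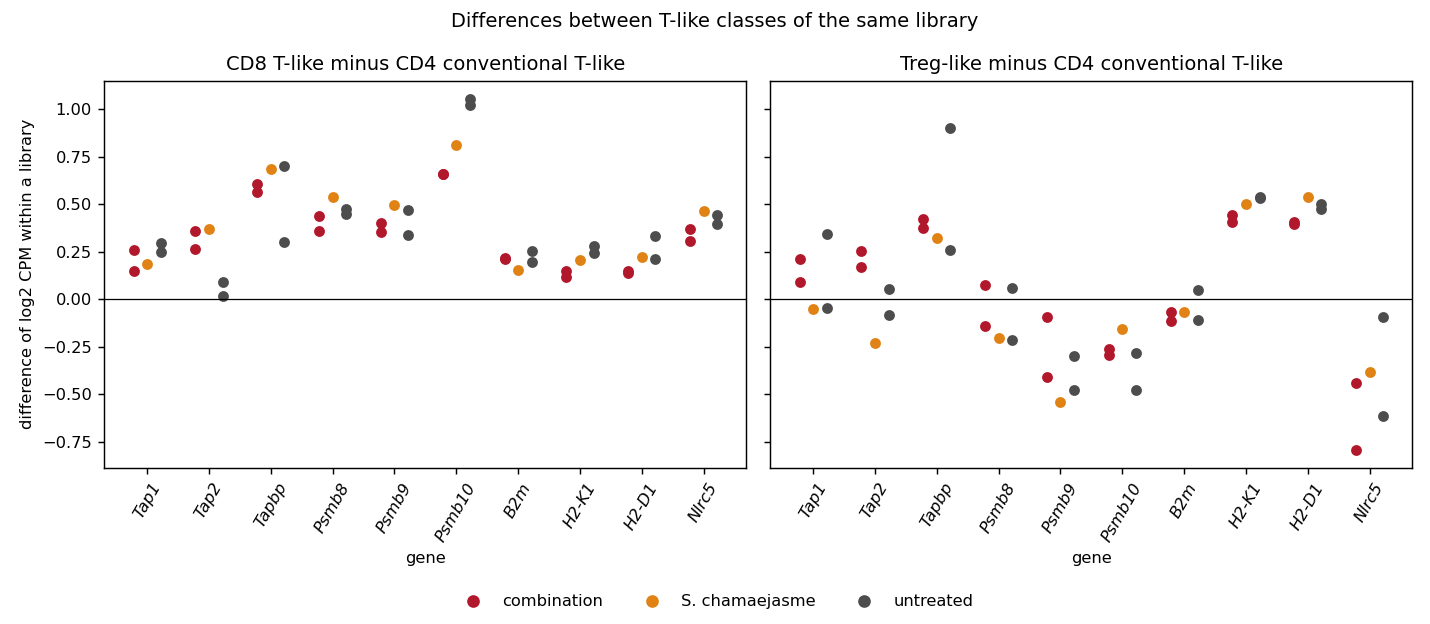
Difference of log2 CPM between classes of the same library (y axis) for each gene (x axis), CD8 T-like minus CD4 conventional on the left and Treg-like minus CD4 conventional on the right. Each point is 1 library, with the combination, S. chamaejasme and untreated from left to right. All points of the left panel lie above 0, whereas on the right H2-K1, H2-D1 and Tapbp lie above 0 and Nlrc5, Psmb9 and Psmb10 below it.

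The order of the classes thus differed between genes. H2-K1 and H2-D1 were highest in Treg-like, then in CD8 and then in CD4 conventional T-like cells, and Nlrc5, Psmb9 and Psmb10 ran from CD8 through CD4 conventional to Treg-like cells. Tap1 averaged 71.5 ± 15.3, 61.3 ± 14.3 and 66.3 ± 16.3 CPM in CD8, CD4 conventional and Treg-like cells (SD, n = 5 each). That spread over libraries exceeded the steps between classes, but the classes share libraries. Within libraries the log2 difference of CD8 from CD4 conventional T-like cells was 0.227 ± 0.059 (SD) and positive in all 5. For Treg-like cells it was 0.11 ± 0.17 (SD), positive in 3 libraries and negative in 2. Among other genes of the pathway, Tapbpl, which encodes a relative of tapasin that edits peptides, was higher in CD8 than in CD4 conventional T-like cells by 1.22 ± 0.08, and in Treg-like than in CD4 conventional T-like cells by 0.61 ± 0.09 (edgeR adjusted p = 7.40e-10 and 2.39e-05). Psme1 and Psme2, which encode the proteasome activator PA28, were higher in CD8 T-like cells by 0.52 ± 0.05 and 0.35 ± 0.06 (edgeR adjusted p = 3.70e-07 and 2.74e-04). Of 14 constitutive core genes, 8 were higher and 1 lower in CD8 T-like cells, and 7 higher and 1 lower in Treg-like cells, than in CD4 conventional T-like cells.

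Across the 15 clusters with at least 50 cells, the 10 genes varied 1.71-fold (B2m) to 8.27-fold (Tapbp) between the highest and lowest cluster. Cluster 14, 64 cells led by the interferon response genes Ifit3 and Ifit1, was highest for 8 of the 10. Over all libraries it had 238 CPM of Tapbp (exact Poisson 95% interval 185 to 302, counting error only), 339.7 CPM of Psmb9 (276 to 414) and 154 CPM of Tap1 (112 to 207). The second highest clusters had 153 CPM for Tapbp, 236 CPM for Psmb9 and 81.2 CPM for Tap1. For Tapbp that was cluster 8, which met the gamma delta markers but also had the NK cell markers Fcer1g and Tyrobp among its leading genes. It had 94.9 CPM of Trdc, 177 CPM of Trac and 170 CPM of Cd8a, against 169.6, 78.1 and 33.5 CPM in cluster 11. Whether it also holds alpha beta T cells was not tested. Of its 862 cells, 500 came from the S. chamaejasme library. Cluster 8 was above both CD8 T-like clusters for Tap2, Tapbp, Psmb8 and Psmb10. It had 171 CPM of Psmb10, against 91.9 and 116 CPM in clusters 3 and 6. For Tap1, B2m and Nlrc5 it was below both, and for the other genes it lay between them. H2-K1 and H2-D1 were highest in the Treg-like cluster 5, led by Penk and Tnfrsf9, at 5138 and 3213 CPM. Cluster 7 was lowest for Tap2, Tapbp and Psmb10, with 28.8 CPM of Tapbp. These are descriptions of cells that clustering put together. CPM of clusters carry no TMM factor.

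**Figure D4:**
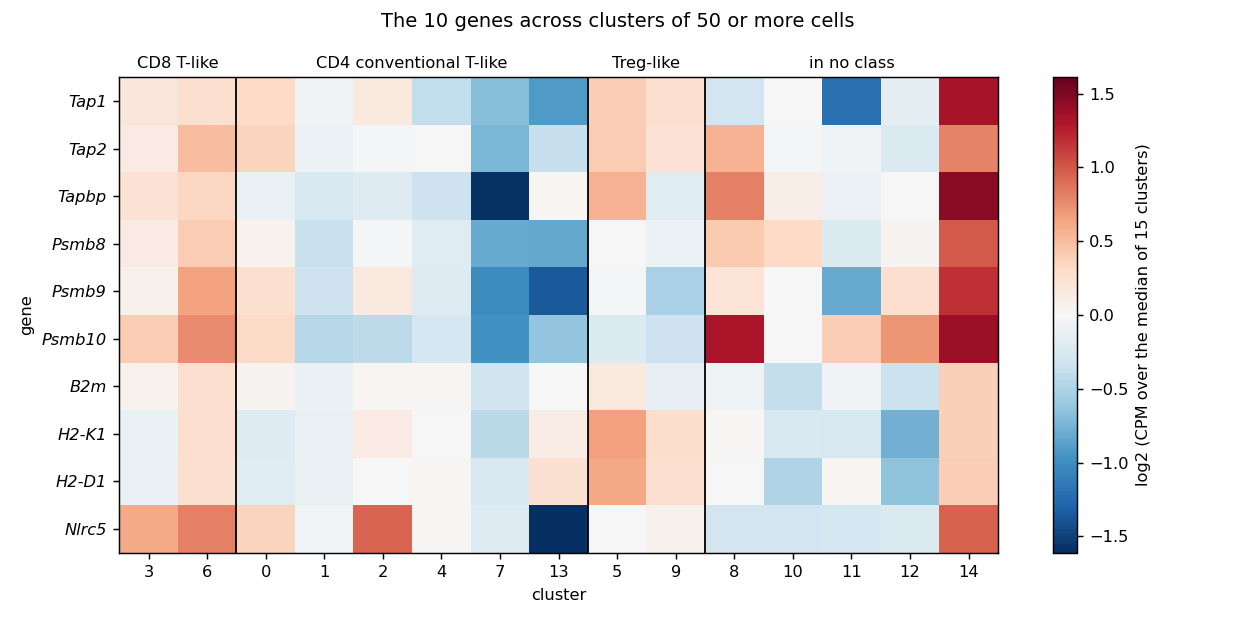
Level of each gene (rows) in each cluster of 50 or more cells (columns, grouped by class) as log2 of its CPM over the median of the 15 clusters. Red is above and blue below the median. Cluster 14 on the right is red for all 10 genes, and cluster 7 is blue for all 10.

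Clone size was read from the TCR libraries. Cells of clonotypes found in 2 or more cells of a library were summed apart from those of clonotypes found in 1 cell. In CD8 T-like cells 0 of 10 genes passed between expanded and single-cell clones with edgeR and with DESeq2, where 20.5% of genes passed, and 1 had an unadjusted p under 0.05. That gene was Psmb9, with 319.7, 278, 235, 142 and 175 CPM in expanded clones (library order as above) against 218, 216, 214, 128 and 164 CPM in single-cell clones. It was higher in expanded clones of 5 of 5 libraries, by 0.26 ± 0.10 (edgeR adjusted p = 0.0633; 0.0447 without untreated library 2). The expanded CD8 sums held 44 to 371 cells. In CD4 conventional T-like cells 1 gene passed and fell, where 12.8% of genes fell. Psmb10 had 55.5, 52.8, 44.4, 49.6 and 44.7 CPM in expanded against 75.2, 66.7, 70.8, 47.4 and 54.2 CPM in single-cell clones, lower in 4 of 5 libraries (-0.37 ± 0.11, edgeR adjusted p = 0.0200). It did not pass without the S. chamaejasme library (-0.27, edgeR adjusted p = 0.139), without combination library 1 (-0.35, adjusted p = 0.0641) or with DESeq2 (adjusted p = 0.0806).

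The 10 genes did not vary as 1 block over the 15 sums. The highest correlations of log2 CPM were between H2-K1 and H2-D1 (r = 0.96), Psmb8 and Psmb9 (0.92) and Psmb8 and Psmb10 (0.92), and the lowest between H2-K1 and Nlrc5 (-0.44). The sums share libraries and depth, so these values are descriptions. Of 9468 other genes, those most like the mean standardised profile of the set over the 15 sums were Sp140 (r = 0.97), Tkt (0.94), H2-T22 (0.92), Eif3l (0.92) and Dnaaf5 (0.91). Sp140 encodes a nuclear body protein of leukocytes and had 100.4 and 101 CPM in combination CD8 T-like cells and 81.4 CPM with S. chamaejasme, against 52.8 and 75.8 CPM untreated.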

How the data were processed

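Gene expression and T cell receptors of tumour-infiltrating T cells were measured by single-cell sequencing in 5 RNA and 5 TCR libraries. The authors deposited raw UMI counts per gene and cell barcode, and per contig the read counts and UMI counts of the receptor chains. Reads were processed with Cell Ranger 3.1.0 and STAR on mm10, per the submitters' processing notes; neither the annotation release nor the STAR version is stated there. Groups follow the labels. The 10 genes and all lists were chosen with earlier results of these data known.

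Barcodes under 300 genes or over 10% mitochondrial UMIs were dropped. Doublets were removed by a score against simulated doublets or by 2 or more TRB chains, 1263 in all. Cells were clustered on 2000 variable genes, 30 components and 15 neighbours (resolution 1), without the members, their pathway lists and TCR segment genes. Clusters were named from marker lists, and a name carries "-like" because it was rebuilt here. UMI counts were summed per library and class (at least 30 cells). The sums held 162 to 3285 cells and 517649 to 16305569 UMIs. The main test was edgeR's quasi-likelihood test with TMM factors and a filter on low counts; lineage and clone comparisons had the library as a block. Adjusted p is Benjamini-Hochberg over all genes tested. Treatment groups share 1 estimate of spread with 2 residual degrees of freedom. Levels are CPM with TMM factors over the 15 sums, except marker lists and clusters, which have no factor. Intervals are exact Poisson at 95% and cover counting error only.

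Members were reported in full; of each pathway list, up to 4 genes past the threshold with the largest change could be named, and 1 gene of the interferon list is not reported here. The 5 genes most like the members were ranked by Pearson's r. On simulated data with 200 genes changed 2-fold, the treatment fit found 69% in CD8, 77% in CD4 conventional and 53% in Treg-like sums. The simulation gave all genes 1 fixed spread, not estimated from these data, and changed only genes above a floor of expected counts. The members' differences in the main treatment fits were below 2-fold, and smaller changes were not simulated, so these shares do not give the power for the members. Alternatives were DESeq2 size factors, the DESeq2 test, no filter, cells gated by UMIs of Cd8a, Cd8b1, Cd4 and Foxp3, doublets left in, 1 cluster per class, leaving out each library, no library block and, chosen after the data had been seen, leaving out cluster 7 or cells with an erythroid UMI. Gene positions are from GENCODE M21. Fits ran in R 4.3.3 (edgeR 4.0.16, limma 3.58.1, DESeq2 1.42.0), and sums, clusters and figures in Python 3.11.15 (scikit-learn 1.9.0, igraph 0.11.9, leidenalg 0.10.2, pandas 2.3.3, numpy 2.4.6, scipy 1.17.1, matplotlib 3.10.9).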

Additional observations from a re-analysis of the deposited data

Results flagged for a closer look

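Tapbp in untreated library 2 stood apart in the comparison of Treg-like with CD4 conventional T-like cells. Its log2 ratio between these classes was 0.90 there, while the other 4 libraries lay between 0.26 and 0.42. Treg-like Tapbp in that library was 86.6 CPM from 131 UMIs. The rule that picks a value far from the others flags about 1 in 20 groups by chance, and 20 sets of 5 ratios were examined.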

How the results depend on the processing

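The numbers of the 10 genes that passed are given here for alternatives that moved them by more than 1.5 times, and for some others; the main values are in the report. With each library left out in turn, the combination against untreated gave 2 to 6 in CD8, 1 to 9 in CD4 conventional and 0 to 6 in Treg-like cells. S. chamaejasme against untreated gave 1 to 5, 0 to 6 and 0 to 2, and the combination against S. chamaejasme 0 to 2, 0 to 4 and 0 to 3 in the same class order. Lineages gave 8 to 10 for CD8 and 5 to 6 for Treg-like cells, the interaction for CD8 0 to 1, and clones 0 to 1 in both classes. With the DESeq2 test, 0 genes passed for S. chamaejasme in CD8, 0 for the combination in Treg-like cells and 0 for clones in CD4 conventional T-like cells. Without the filter, S. chamaejasme gave 3 in CD8 and 3 in CD4 conventional T-like cells. Cells gated by UMIs gave 2 for S. chamaejasme in CD8, 2 for the combination in CD4 conventional, 0 in Treg-like cells, and 1 and 2 for clones in CD8 and CD4 conventional T-like cells. Doublets left in gave 1 for the combination in Treg-like cells. With 1 cluster per class, S. chamaejasme gave 0 in CD8, and the combination 1 in CD4 conventional and 0 in Treg-like cells. DESeq2 size factors gave 4 for the combination in CD8 and 2 in Treg-like cells, no filter and doublets left in gave 4 each in CD8, and the UMI gate gave 8 and 5 for the CD8 and Treg-like lineage contrasts. Without the library block, 3 genes passed for each lineage contrast and 0 for clones in CD4 conventional T-like cells. The 1 called difference that turned its direction was H2-D1 in Treg-like cells of the combination, 0.22 without untreated library 2 and -0.24 without untreated library 1. Of 1710 single-gene alternatives, 1582 kept their call or lack of one; 73 of these were uncalled values that changed sign, such as H2-D1 in combination CD8 T-like cells (-0.20 to 0.13). The causes were not tested, apart from fewer samples when a library is left out. Treatment fits without a combination or untreated library left 1 library in that group, and their spread came from the other pair alone. Over all genes, calls for the combination against untreated ranged from 127 to 1398 in CD8 (main 375), 180 to 2606 in CD4 conventional (787) and 8 to 888 in Treg-like cells (287); for S. chamaejasme from 73 to 1121 (132), 84 to 2471 (249) and 14 to 710 (203). No paired analysis was possible because the labels give the groups no shared replicate numbers. Treg-like sums were the shallowest, and with 2, 1 and 2 libraries per group small differences were not detectable.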
